A study of Mus musculus with 6 samples.

Results

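Cadherins, protocadherins and the Fat, Dachsous (Dchs) and Celsr genes were followed through bulk RNA-seq of mouse aorta. They were taken as every protein-coding row of the count table whose symbol was Cdh with a number, Pcdh with any ending, Fat1 to Fat4, Dchs1, Dchs2 or Celsr1 to Celsr3. This rule found 101 of 55487 rows, with 100 symbols, because Pcdha11 stood under 2 gene identifiers. Of these, 66 had a count over 10 in all libraries of at least 1 group and were tested among 16565 genes. The filter was passed in both groups by 60 members, in control alone by 1 and in KO alone by 5.

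The libraries came from aortas, with the adventitia removed, of 3 control and 3 Prdm16 iSM KO male mice at baseline. Prdm16 encodes a zinc finger regulator of transcription. The KO mice were Prdm16 F/F and carried Myh11-CreERT2, a tamoxifen-dependent Cre recombinase driven by the promoter of smooth muscle myosin heavy chain, which deletes the floxed exon 9 in smooth muscle cells. Control mice carried the same Cre with the wild-type Prdm16 W/W allele, and both groups received tamoxifen (1 mg per mouse per day for 10 days, from 8 weeks of age). Tamoxifen was washed out over 2 weeks, and the aortas were taken 60 days later. Endothelial cells, fibroblasts and other cells that do not express Myh11 kept the floxed alleles intact by design.

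Cadherins are calcium-dependent adhesion proteins whose extracellular repeats bind the same or a related cadherin on a neighbouring cell. Classical type I and type II cadherins bind catenins inside the cell and join to actin, whereas protocadherins and the giant Fat, Dachsous and Celsr proteins signal more than they hold cells together. Fat and Dachsous form a receptor and ligand pair that feeds into Hippo signalling and planar cell polarity, and Celsr proteins are core components of planar polarity. In the artery, N-cadherin (Cdh2), Cdh11 and T-cadherin (Cdh13) are known in smooth muscle and VE-cadherin (Cdh5) in the endothelium.

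Total counts were 24911609 to 40460467 per library. Prdm16 was 195 ± 24.5 CPM in control and 95.4 ± 16.5 CPM in KO (mean ± SD, n = 3 each), and its log2 fold change was -1.03 (SE 0.14, FDR 0.00265). CPM are counts per 1000000 of a library total scaled by edgeR's TMM method, and FDR is the adjusted p of edgeR's quasi-likelihood test over all tested genes. The summed level of 8 smooth muscle markers was 24187 to 29041 CPM in control and 26034 to 28522 CPM in KO. Of these markers Myocd alone passed the FDR, rising from a mean of 195 to 305 CPM (log2 fold change 0.65, SE 0.12, FDR 0.0109). Mylk and Myh11 were higher in every KO library without passing, and the others had overlapping groups. Marker sums of 8 fibroblast genes (1106 to 1334 CPM in control, 796 to 825 CPM in KO) and of 8 adipocyte genes (109 to 276 CPM in control, 81.9 to 94.5 CPM in KO) were lower in every KO library, and the sum of 8 cardiomyocyte genes (122 to 152 CPM in control, 165 to 219 CPM in KO) was higher in every KO library. The sums of 8 immediate early genes (662 to 1502 CPM in control, 535 to 626 CPM in KO) and of 8 mesothelial and epithelial genes (10.8 to 12.4 CPM in control, 2.31 to 9.61 CPM in KO) were lower in every KO library. Krt18 was the only tested gene of the latter list and gave most of its control sum. It fell from 10.9, 11.1 and 9.60 CPM to 2.04, 3.04 and 4.08 CPM (FDR 0.00201). In KO 3, Krt8 (2.33 CPM), Upk3b (1.12 CPM), Krt19, Epcam, Msln and Lrrn4 were above every control, while Wt1 was not. Counts differed less among the KO libraries (chi-square per degree of freedom 12.2 to 19.4) than among the controls (47.8 to 70.5), and control 3, the shallowest library, also had the least of its counts in protein-coding genes (59.0%). The part of these differences in the results on cadherins was not tested.

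Among the 66 tested members, 8 rose and 2 fell in KO aorta at an FDR under 0.05. That is 12.1% and 3.03% of the tested members, where 4.26% and 3.3% of all tested genes passed in the same directions. Fat3, Cdh6, Cdh2, Cdh11, Pcdh1, Pcdh9, Pcdhgc5 and Pcdhga2 rose, and Celsr2 and Pcdh11x fell. With a fold change over 2 asked in addition, Fat3 and Cdh2 were higher and Pcdh11x was lower, or 3.03% and 1.52% of the members, beside 1.4% and 1.38% of all tested genes. The median log2 fold change was 0.04 over the members and -0.01 over all tested genes. Control and KO libraries did not overlap in 22 of the 66 members (33.3%), 15 with every KO library above and 7 with every KO library below, and did not overlap in 27.9% of all tested genes. The members outside the clusters of protocadherin genes held most of the calls, with 8 of 26 past the FDR, and 2 of the 40 tested clustered genes passed. These are bulk samples, in which fewer cells of a type and less RNA per cell cannot be told apart.

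**Figure D1:**
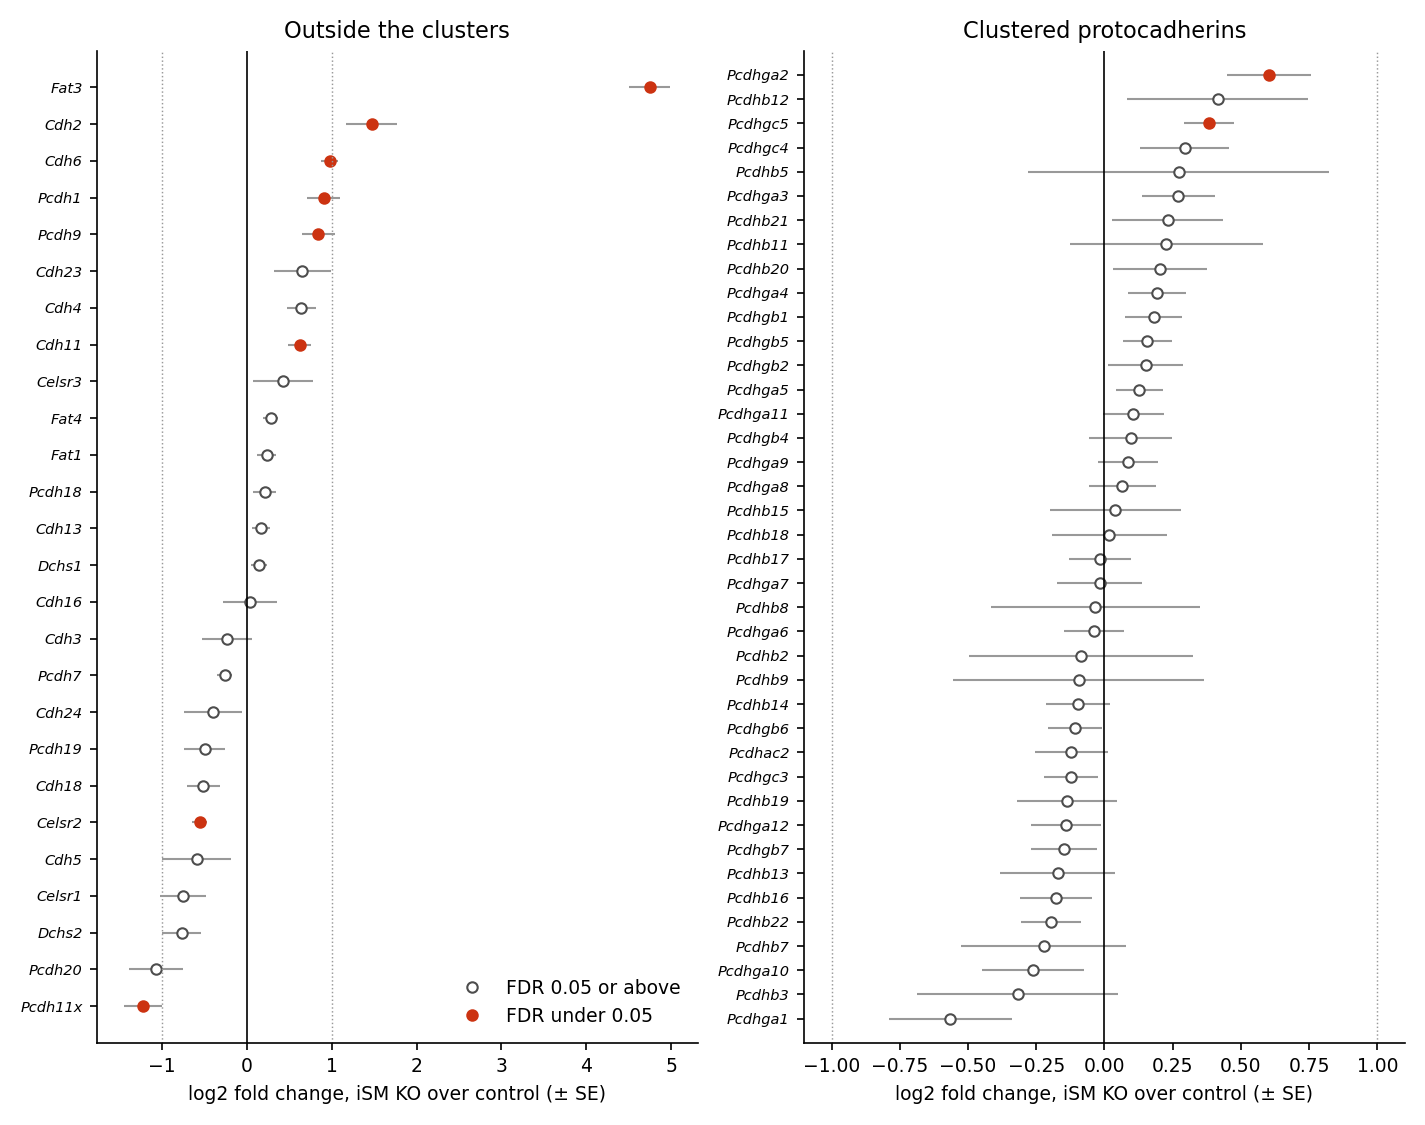
Log2 fold change of iSM KO over control for the 66 tested members (edgeR, 3 libraries a group, bars ± SE), the 26 outside the clusters on the left and the 40 clustered protocadherins on the right, with different horizontal scales. Filled points have an FDR under 0.05, and dotted lines mark a log2 fold change of 1 either way. Fat3 stands at 4.75, and no clustered gene passes a dotted line.

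Fat3, Cdh6 and Celsr2 are shown with the 250 bases before their RefSeq starts (GRCm38.p6), because these 3 members passed the FDR in all 6 leave-one-library-out fits and all 6 other settings. Each window reads 5′ to 3′ on the minus strand toward the gene, with CG dinucleotides in capitals, which mark how rich in CpG each start is. The windows lie at chr9:16502055-16502304 for Fat3, chr15:13173676-13173925 for Cdh6 and chr3:108415580-108415829 for Celsr2, all in the 5′ flank of the gene.
Fat3: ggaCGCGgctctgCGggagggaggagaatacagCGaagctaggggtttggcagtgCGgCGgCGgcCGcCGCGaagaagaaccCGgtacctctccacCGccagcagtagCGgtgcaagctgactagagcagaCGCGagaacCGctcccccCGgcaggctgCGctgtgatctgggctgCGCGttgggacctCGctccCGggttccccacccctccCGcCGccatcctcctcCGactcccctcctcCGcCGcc
Cdh6: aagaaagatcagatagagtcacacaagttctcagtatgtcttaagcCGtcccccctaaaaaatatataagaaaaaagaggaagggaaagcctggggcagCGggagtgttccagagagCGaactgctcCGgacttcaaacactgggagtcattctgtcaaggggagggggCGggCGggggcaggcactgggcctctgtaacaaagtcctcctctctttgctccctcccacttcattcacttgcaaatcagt
Celsr2: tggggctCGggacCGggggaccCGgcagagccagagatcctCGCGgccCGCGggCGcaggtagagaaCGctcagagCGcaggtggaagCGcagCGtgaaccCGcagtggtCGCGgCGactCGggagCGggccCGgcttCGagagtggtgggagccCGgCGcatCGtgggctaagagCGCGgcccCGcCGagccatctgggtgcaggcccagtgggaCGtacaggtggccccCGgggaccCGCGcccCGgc

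The window before Fat3 held 27 CG dinucleotides, more than 91.4% of 32851 RefSeq promoters of this length, and that before Celsr2 held 32, more than 95.4%. Cdh6 had 6, the median of all promoters. Of these 3 members, 1 that rose and 1 that fell thus had CpG-rich starts. Short motifs were searched in the windows on both strands, with a place matched on both counted 1 time. The E-box, spelled CANNTG, occurred in 66.2% of all promoters of this length, at 3 places before Celsr2 and at 1 before Cdh6. The box bound by the factor Sp1, spelled GGGCGG, occurred in 32.7% of promoters and at 2 places before Cdh6. The remaining motifs had no match in these 3 windows. Of all promoters, 12.4% held the element spelled TATAAA that often lies just before a start, 33.8% held the box for nuclear factor Y spelled CCAAT on either strand, 12.6% held the motif of the Hippo pathway's TEAD factors spelled GGAATG and 1.47% held the CArG box of serum response factor. RefSeq starts matched 29 of the 100 member symbols, and the RefSeq start of Fat3 was 769 bases upstream of the GENCODE start.

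Fat3 (ENSMUSG00000074505, chromosome 9, 15910189 to 16501285, minus strand) showed the largest fold change of the members. The gene encodes a giant cadherin known for shaping the dendrites of retinal neurons. Counts were 17, 27 and 23 in controls 1 to 3 and 716, 552 and 866 in KO 1 to 3. Scaled, these were 0.507, 0.703 and 0.964 CPM in control and 17.6, 15.8 and 23.7 CPM in KO. All 3 KO libraries lay far above all 3 controls, in which Fat3 had 27 counts or fewer. The log2 fold change was 4.75 (SE 0.24, FDR 2.12e-05), a fold of 26.8, and Fat3 ranked 8 among all tested genes by FDR. Without each library in turn, the log2 fold change ranged from 4.55 to 4.95. The sum of 9 neuron markers was 7.23 to 8.24 CPM in control and 7.26, 9.14 and 17.6 CPM in KO 1 to 3, with Dbh at 0 in every library. Of the 5 tested neuron markers, whose median log2 fold change was 1.20, 4 were above 0 and Tubb3, a neuronal tubulin, rose from 1.58, 1.33 and 1.55 CPM to 3.14, 4.16 and 5.31 CPM (FDR 0.00622). Rbfox3, Syt1 and Snap25 were above 0 without passing (FDR 0.259 to 0.462). Stmn2, the highest neuron marker in control, went the other way without passing (mean 3.84 CPM in control and 2.52 CPM in KO, log2 fold change -0.63, SE 0.39, FDR 0.387). The part of neuronal RNA in the rise of Fat3 was not tested.

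Fat1 and Fat4, the Fat genes with the higher levels per kb of exon, did not pass the FDR. Fat1, a giant cadherin studied in smooth muscle for its restraint of cell growth, had 1019, 1133 and 875 CPM in control and 1231, 1204 and 1128 CPM in KO. KO 3 fell just below control 2, so that the groups overlapped, and the log2 fold change was 0.23 (SE 0.11, FDR 0.263). Fat4 is the receptor that binds Dachsous in mammals. Its level was 301, 290 and 250 CPM in control and 352, 331 and 340 CPM in KO, with every KO library above every control. The log2 fold change of 0.28 (SE 0.09) had an FDR of 0.107. Fat2, mainly an epithelial gene, had at most 2 counts in any library and was not tested. Per kb of exon, Fat3 took 0.0286% to 0.0637% of the summed level of the 4 Fat genes in control and 0.76% to 1.19% in KO, so Fat1 and Fat4 made up nearly all of the Fat transcript level in both groups.

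Dchs1, the main ligand of Fat4, had 36.2, 42.0 and 39.6 CPM in control and 39.6, 42.8 and 47.7 CPM in KO. These ranges overlapped, and the log2 fold change was 0.14 (SE 0.09, FDR 0.416). Its relative Dchs2 had 5.16, 5.91 and 8.85 CPM in control and 3.95, 3.15 and 4.54 CPM in KO. All KO libraries were below the controls, and the log2 fold change of -0.76 (SE 0.23) had an FDR of 0.0841 with edgeR and 0.0209 with DESeq2.

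Celsr2 (ENSMUSG00000068740, chromosome 3, 108390851 to 108415552, minus strand) fell. It is a planar polarity cadherin with a transmembrane part like that of G protein-coupled receptors. The 3 controls were nearly alike at 29.5, 29.2 and 29.6 CPM, and KO 1 to 3 had 20.7, 18.5 and 20.97 CPM. The groups stood apart by far more than the spread within either, with a log2 fold change of -0.55 (SE 0.09, FDR 0.00558). Celsr1, which orients cells in skin and in lymphatic valves, had 9.31, 12.9 and 7.38 CPM in control and 4.32, 5.13 and 8.27 CPM in KO. KO 3 lay above control 3, and the log2 fold change of -0.75 (SE 0.27, FDR 0.141) did not pass, though without KO 3 it was -1.07 with an FDR of 0.036. Celsr3, mostly known from axon guidance, was low at 0.836, 0.859 and 1.64 CPM in control and 1.20, 1.20 and 1.999 CPM in KO. The groups overlapped, with a log2 fold change of 0.43 (SE 0.36, FDR 0.52).

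**Figure D2:**
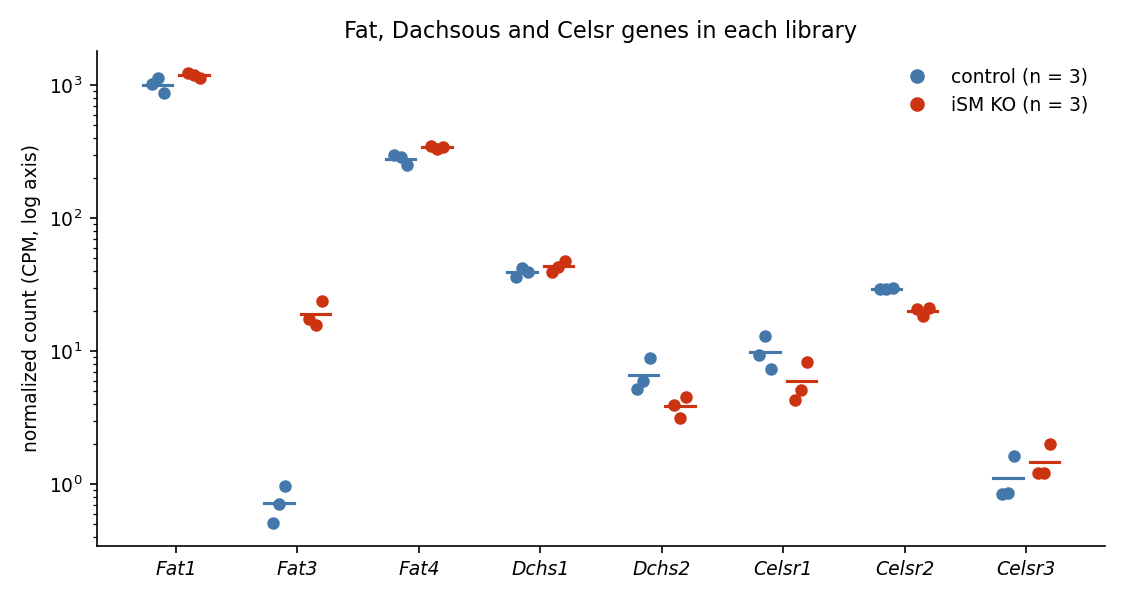
TMM-scaled counts (CPM, log axis) of the tested Fat, Dachsous and Celsr genes in each of the 3 control and 3 iSM KO libraries, with horizontal lines at the group means. Fat3 rises from a mean of 0.725 to 19.0 CPM, Celsr2 lies lower in all 3 KO libraries, and the control and KO points of Fat1, Dchs1, Celsr1 and Celsr3 overlap.

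Cdh6 rose the most of the type II cadherins. This gene, known as K-cadherin from the developing kidney, is ENSMUSG00000039385 (chromosome 15, 13028701 to 13173675, minus strand). Its level was 53.6, 43.1 and 47.6 CPM in control and 103, 93.1 and 88.1 CPM in KO. The lowest KO library was well above the highest control, and the log2 fold change was 0.98 (SE 0.10, FDR 7.38e-04), a fold of 1.97 just short of the fold-change threshold. Cdh11, a cadherin of mesenchymal cells and fibroblasts, rose from 19.6, 26.7 and 20.0 CPM to 36.0, 30.1 and 36.2 CPM. Its groups did not overlap, and the log2 fold change was 0.62 (SE 0.13, FDR 0.0252). The sum of the 8 fibroblast markers, most of it Col1a1, was lower in every KO library, as given above. All 8 had log2 fold changes below 0, and Scara5 and Clec3b alone passed the FDR. The part of fibroblast RNA in the level of Cdh11 was not tested. Cdh11 lost its call when control 1, control 3 or any single KO library was left out, with an FDR of 0.0511 to 0.0929.

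The other tested type II cadherins did not pass the FDR. Cdh18, described mainly in brain, had 2.93, 3.59 and 3.65 CPM in control and 2.13, 2.24 and 2.77 CPM in KO, with every KO library lower (log2 fold change -0.51, SE 0.20, FDR 0.168). VE-cadherin, Cdh5, was measured at 51.0, 66.4 and 23.6 CPM in control and 16.1, 31.2 and 46.9 CPM in KO. It varied severalfold within both groups, and the log2 fold change was -0.59 (SE 0.41, FDR 0.438). The sum of 12 other endothelial markers moved with it from library to library, at 1225, 1463 and 712 CPM in control and 378, 654 and 1118 CPM in KO. Cdh5 was 3.32% to 4.54% of that sum in control and 4.19% to 4.77% in KO, with the lowest share in control 3. All 12 of those markers had log2 fold changes below 0 and none passed the FDR. The part of endothelial RNA in the level of Cdh5 was not tested.

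**Figure D3:**
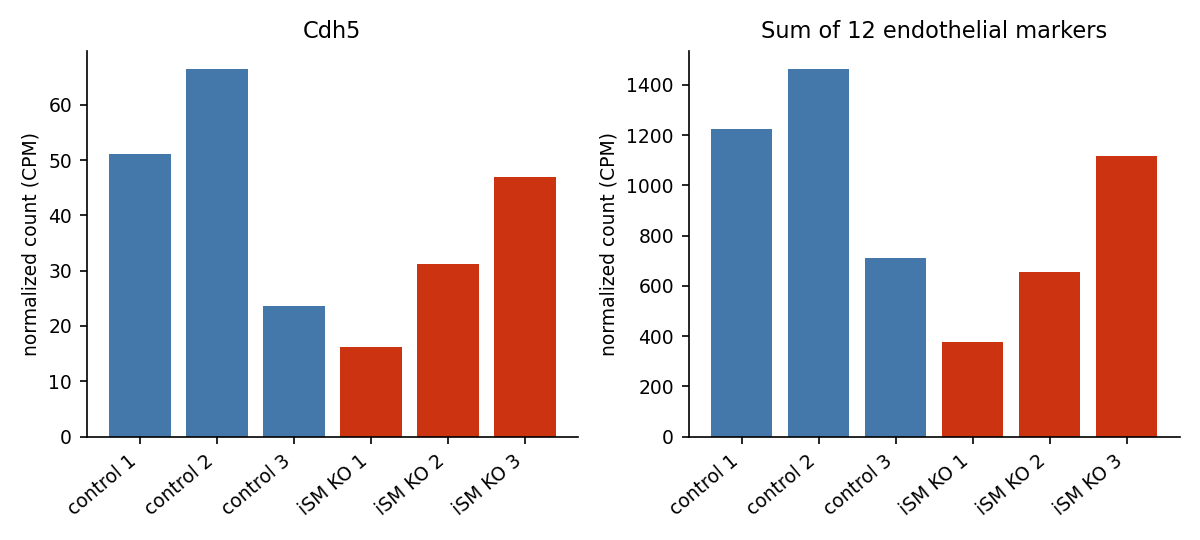
TMM-scaled counts (CPM) of Cdh5 (left) and the sum of 12 other endothelial markers (right) in each library, controls in blue and iSM KO in red. Both are lowest in iSM KO 1 and highest in control 2, at 16.1 and 66.4 CPM for Cdh5, and the bars follow the same order across the 6 libraries except for control 3 and iSM KO 2.

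Of the type I cadherins, Cdh2 rose. N-cadherin is the classical cadherin of smooth muscle, cardiac muscle and neurons, yet Cdh2 was scarce in these aortas, at 1.58, 0.833 and 0.922 CPM in control and 2.36, 3.55 and 3.39 CPM in KO. The lowest KO library was above the highest control, and the log2 fold change was 1.47 (SE 0.30, FDR 0.02), a fold of 2.77. Without control 3 the FDR was 0.0733, and without KO 2 it was 0.0917. The cardiomyocyte marker sum was also higher in every KO library, with Ryr2 giving most of it. Ryr2 (log2 fold change 0.50, SE 0.13, FDR 0.0459) and Actn2 (0.78, SE 0.15, FDR 0.0154) rose, and Myl4 was higher in every KO library without passing (FDR 0.174). Myh6 went the other way without passing (mean 0.98 CPM in control and 0.54 CPM in KO, log2 fold change -0.88, SE 0.53, FDR 0.369), as did Tnni3 (-0.24, SE 0.45, FDR 0.789). Myl2, Myl7, Nppa and Tnni3 were under 1 CPM in every library. The part of these cardiomyocyte genes in the rise of Cdh2 was not tested. Cdh4 (R-cadherin, known from retina) had 4.06, 4.76 and 3.19 CPM in control and 6.50, 5.90 and 6.49 CPM in KO. No library overlapped, and its log2 fold change of 0.64 (SE 0.17) just missed at an FDR of 0.055. Cdh3, the P-cadherin of placenta and epithelia, had 5.52, 8.07 and 3.90 CPM in control and 6.80, 4.47 and 3.67 CPM in KO, and these overlapped (log2 fold change -0.24, SE 0.29, FDR 0.681). Cdh1, the epithelial E-cadherin, had at most 10 counts in a library and was not tested.

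The atypical Cdh13 is anchored to the membrane by a lipid and has no cytoplasmic part. It was abundant in both groups, at 314, 301 and 241 CPM in control and 319, 321 and 324 CPM in KO. Every KO library was above every control by a small margin, but the log2 fold change was 0.17 (SE 0.11, FDR 0.379). Cdh23, the tip-link cadherin of inner ear hair cells, had 0.461 to 0.677 CPM in control and 0.613 to 1.12 CPM in KO, with an FDR of 0.295.

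All 4 delta-1 protocadherins, which carry conserved motifs in their cytoplasmic tails and are best known from the nervous system, showed no overlap between groups, as did 27.9% of all tested genes. Pcdh1, also studied in airway epithelium, rose from 5.16, 8.14 and 9.43 CPM to 13.3, 13.3 and 15.7 CPM, with a log2 fold change of 0.90 (SE 0.20, FDR 0.0267). Pcdh9 rose from 6.18, 8.56 and 4.95 CPM to 10.9, 11.2 and 13.5 CPM, with a log2 fold change of 0.84 (SE 0.19, FDR 0.0312). Pcdh11x, on the X chromosome, fell from 5.73, 4.48 and 6.71 CPM to 2.40, 1.89 and 2.93 CPM, with a log2 fold change of -1.22 (SE 0.22, FDR 0.0118). The directions within this small group were therefore mixed. Pcdh7, the highest of them per kb of exon, had 954, 895 and 1027 CPM in control and 795, 809 and 798 CPM in KO. Its KO libraries were all lower, but the log2 fold change was -0.26 (SE 0.09) with an FDR of 0.129. With each library left out in turn, the log2 fold changes were 0.69 to 1.07 for Pcdh1, 0.68 to 1.09 for Pcdh9 and -1.38 to -1.07 for Pcdh11x. The calls did not all hold. Pcdh1 missed the threshold when any single KO library was left out (FDR 0.0647 to 0.0785), Pcdh11x missed it without KO 2 (0.0539), and Pcdh9 missed it without control 1, control 3 or any single KO library (0.067 to 0.104). In those fits 3.1% to 6.51% of all tested genes passed, beside 7.56% in the main test.

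The delta-2 and remaining protocadherins gave no call. Pcdh18 had 4.78, 4.97 and 5.03 CPM in control and 5.82, 5.27 and 5.996 CPM in KO, which did not overlap (log2 fold change 0.21, SE 0.13, FDR 0.397). Pcdh19, a gene of female-limited epilepsy, had 3.10, 3.88 and 3.90 CPM in control and 2.09, 2.18 and 3.45 CPM in KO, with KO 3 inside the control range (log2 fold change -0.50, SE 0.24, FDR 0.261). Pcdh20 had 1.73, 1.59 and 1.38 CPM in control and 0.466, 0.774 and 1.01 CPM in KO. All its KO libraries were lower, and the log2 fold change of -1.07 (SE 0.32) had an FDR of 0.0841.

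**Figure D4:**
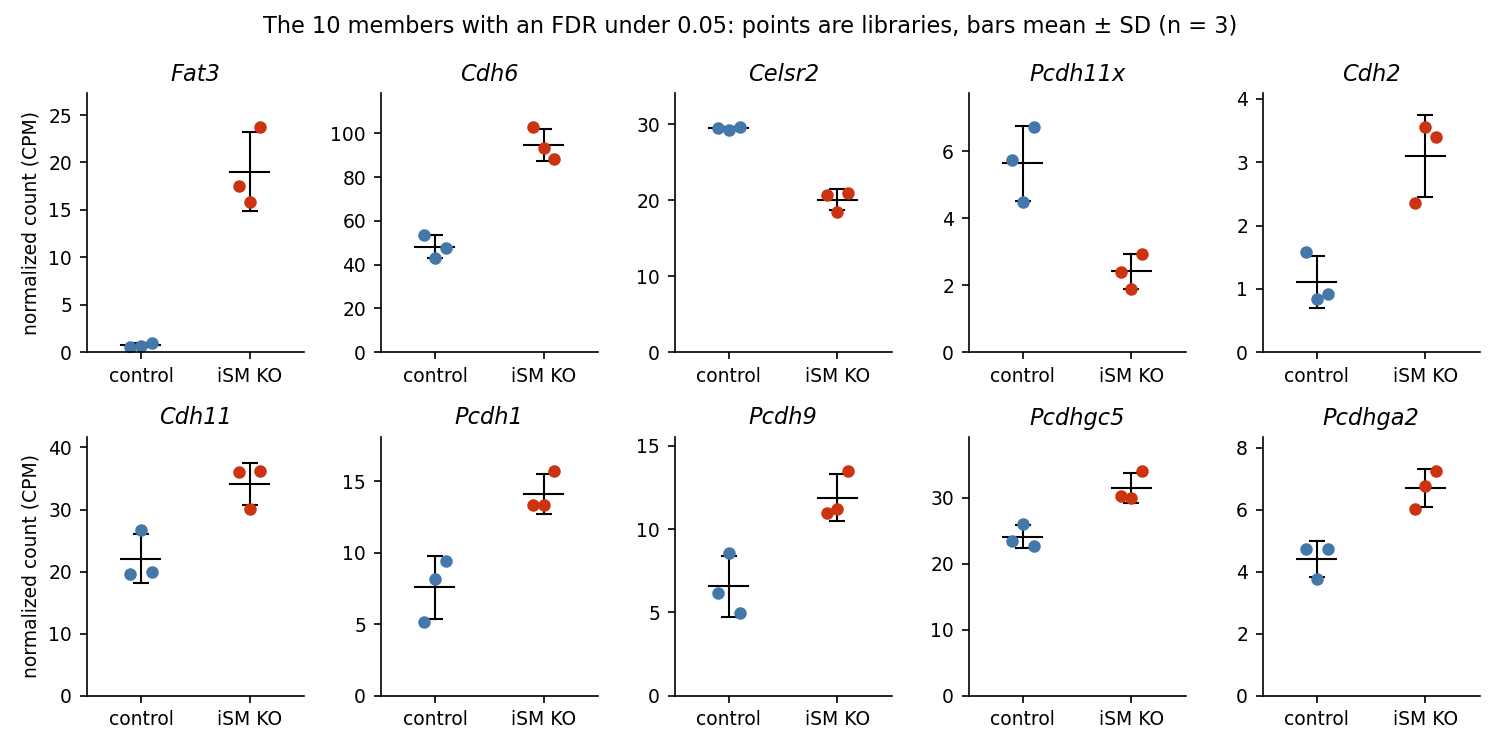
TMM-scaled counts (CPM, axes from 0) of the 10 members with an FDR under 0.05 in each library, with group means and SD (n = 3). The groups do not overlap in any panel. Fat3 moves from under 1 CPM to 15.8 or more, while Pcdhgc5 moves from a mean of 24.1 to 31.5 CPM.

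The clustered protocadherins form 3 arrays on chromosome 18, which give neurons combinations of surface isoforms. There were 14 alpha genes (36930184 to 37187661), 22 beta genes (37264938 to 37524479) and 21 gamma genes (37661793 to 37841873). Of these, 1 alpha, 18 beta and 21 gamma genes were tested. Alpha genes share their last exons with each other and gamma genes likewise, so reads in those exons cannot be given to a single isoform, and how the authors divided them is not stated in the sources used here. Single alpha and gamma values are therefore uncertain, and sums over a cluster were taken beside them.

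The level summed over the gamma cluster was 408, 412 and 383 CPM in control and 391, 384 and 432 CPM in KO. The beta sum was 65.2, 59.2 and 61.4 CPM in control and 56.9, 59.3 and 62.1 CPM in KO. The alpha sum was 7.28, 7.23 and 7.51 CPM in control and 6.53, 6.85 and 7.56 CPM in KO. In all 3 clusters the groups overlapped, and the KO means were 0.950 (alpha), 0.960 (beta) and 1.003 (gamma) times the control means. Pcdhac2 was the only alpha gene tested and held most of the alpha sum, with 6.17 to 6.99 CPM in control and 5.77 to 6.79 CPM in KO (log2 fold change -0.12, SE 0.13, FDR 0.638).

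Pcdhgc3, the highest gamma gene per kb of exon, had 160, 166 and 146 CPM in control and 134, 135 and 164 CPM in KO. The groups overlapped (log2 fold change -0.12, SE 0.10, FDR 0.513), and its share of the gamma sum was 38.1% to 40.3% in control and 34.3% to 38.0% in KO. Pcdhgc5 rose from 23.5, 26.1 and 22.8 CPM to 30.3, 29.97 and 34.1 CPM (log2 fold change 0.38, SE 0.09, FDR 0.0399). Pcdhga2 rose from 4.75, 3.75 and 4.74 CPM to 6.04, 6.76 and 7.26 CPM (log2 fold change 0.60, SE 0.15, FDR 0.049). Both had non-whole estimated counts in all 6 libraries. Pcdhgc5 kept its call only without control 2 among the leave-one-out fits (FDR up to 0.123 in the others), and Pcdhga2 lost it in all 6 (0.0652 to 0.165). Across the gamma cluster, 13 of 21 log2 fold changes were above 0. Of the 18 tested beta genes, which share no constant exons, 7 were above 0 and 11 below. None passed the FDR and none had separate groups, beside 7.56% and 27.9% of all tested genes. The 5 members that passed the count filter in KO alone were all beta genes with low counts. Pcdhb21 and Pcdhb22 overlap by 455 exon bases on the same strand, and each had non-whole estimated counts in 5 libraries. Pcdhb22 and Pcdhb17 had the highest mean CPM among beta genes, not set per length. Pcdhb22 had 13.1, 11.2 and 13.2 CPM in control and 10.2, 11.2 and 11.2 CPM in KO (log2 fold change -0.20, SE 0.11, FDR 0.329). Pcdhb17 had 10.1, 8.95 and 9.60 CPM in control and 8.59, 9.66 and 10.05 CPM in KO, and both genes had overlapping groups (log2 fold change of Pcdhb17 -0.02, SE 0.11, FDR 0.953).

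Levels of different members were compared per kb of exon. In control aorta Pcdh7 was highest at 90.4 ± 6.25 CPM per kb, followed by Fat1 at 64.5 ± 8.26, Pcdhgc3 at 28.6 ± 1.86, Cdh13 at 25.4 ± 3.47, Fat4 at 16.3 ± 1.54 and Cdh5 at 11.2 ± 5.16 CPM per kb (mean ± SD, n = 3). Pcdh7 and Fat1 had separate ranges, as did Fat1 and Pcdhgc3, and Cdh13 and Fat4. The ranges of Pcdhgc3 and Cdh13 overlapped, as did those of Fat4 and Cdh5. Pcdh7 and Fat1 together gave 47.5% to 50.7% of the summed level per kb of exon of all members in control and 44.3% to 47.6% in KO. In KO, Fat1 (75.9 ± 3.39 CPM per kb) and Pcdh7 (75.5 ± 0.68 CPM per kb) differed by less than the spread of Fat1. Fat3 moved from rank 65 to rank 40 of the 66 tested members by level per kb, Cdh2 from 61 to 49, Cdh6 from 8 to 6 and Pcdh11x from 50 to 56. Antisense genes overlap 2235 exon bases of Pcdh7, 1559 of Pcdhgc3, 1490 of Fat4, 1299 of Dchs2, 648 of Dchs1 and 487 of Fat1. Some other tested members are also overlapped, by up to 2613 exon bases. Whether the counting used strand is not given in the sources used here, so reads of antisense genes cannot be told apart from those of the members they overlap. With the longest transcript as the length, Pcdh7 was at 109, Fat1 at 68.1, Cdh13 at 62.5 and Pcdhgc3 at 33.5 CPM per kb in control. By that length Cdh13 stood near Fat1, so the lead of Pcdh7 and Fat1 as a pair depends on the length used.

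**Figure D5:**
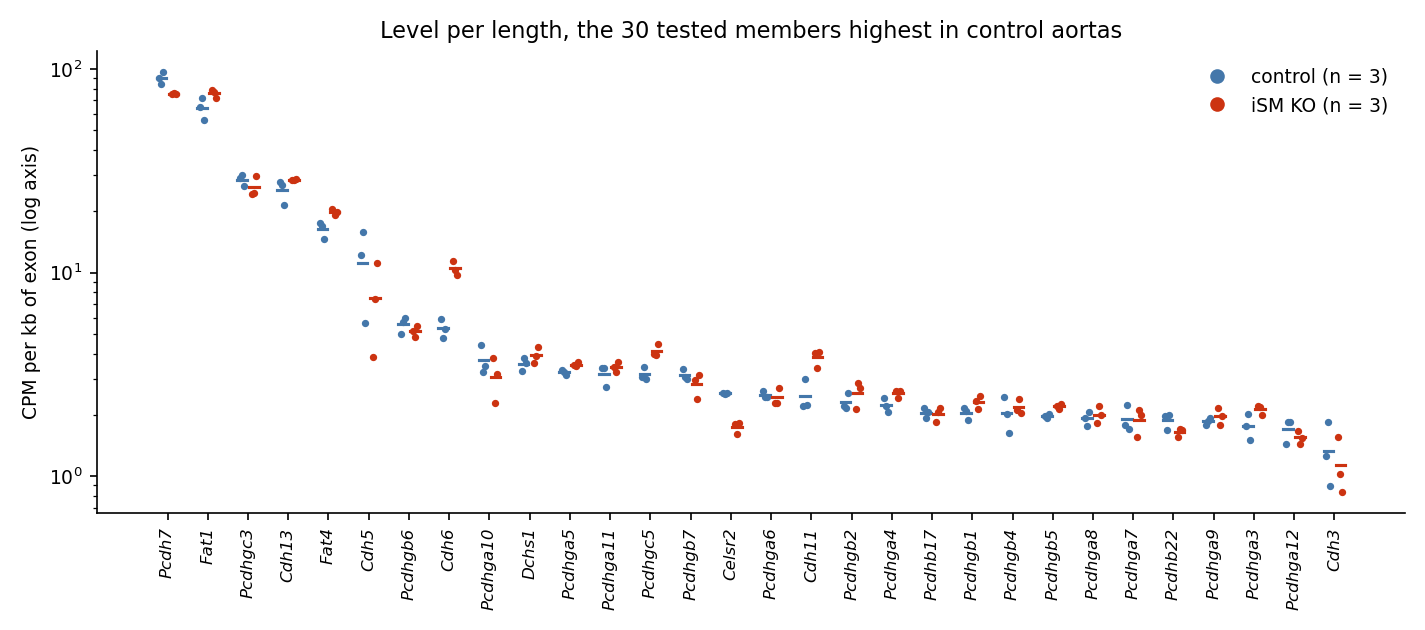
Level per length (CPM per kb of exon, log axis) of the 30 tested members with the highest control mean, in order of that mean. Points are the 3 control and 3 iSM KO libraries and lines are group means. Pcdh7 and Fat1 lead in both groups, and Cdh6 moves from 5.33 to 10.5 CPM per kb.

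The 35 members that were not tested had at most 22 counts in any library. They were 13 alpha and 4 beta genes, 8 type II, 2 type I and 2 atypical cadherins, 3 delta-2 and 2 other protocadherins, and Fat2. Just inside the count filter stood Cdh24 (10 to 20 counts a library) and Pcdhb2 (9 to 28), and just outside Pcdh10 (8 to 22) and Pcdhb4 (6 to 15). Cdh19, a cadherin of Schwann cell precursors, had 5 to 12 counts, and Pcdh12, an endothelial protocadherin, had 2 to 18.

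Genes for the proteins that cadherins act through were followed next. Of 91 listed partner genes in 5 lists, 74 were tested, 6 rose and 4 fell, and none passed a fold of 2. That is 8.11% and 5.41% of the tested partners, beside 4.26% and 3.3% of all tested genes. Among 19 tested catenins and linkers, 3 rose and 2 fell. Beta-catenin (Ctnnb1), which joins classical cadherins to alpha-catenin, had 485, 484 and 482 CPM in control and 500, 550 and 522 CPM in KO, all KO libraries being higher (log2 fold change 0.12, SE 0.08, FDR 0.44). Alpha-catenin (Ctnna1) rose from 224, 224 and 217 CPM to 270, 266 and 275 CPM (log2 fold change 0.29, SE 0.07, FDR 0.0438). Ctnna3, an alpha-catenin of heart muscle, rose from 45.0, 49.3 and 49.6 CPM to 77.0, 74.5 and 65.5 CPM (log2 fold change 0.59, SE 0.09, FDR 0.00407). Plakoglobin (Jup) rose with a log2 fold change of 0.59 (SE 0.11, FDR 0.0142), and Pkp4 (-0.38, SE 0.09, FDR 0.0393) and the receptor phosphatase Ptprk (-0.47, SE 0.08, FDR 0.0107) fell on the log2 scale. p120-catenin (Ctnnd1), which keeps cadherins at the surface, had overlapping groups (log2 fold change 0.05, SE 0.12, FDR 0.845).

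Of 26 Fat, Dachsous and Hippo genes, Yap1 alone passed the FDR, or 3.85% of the list, near the share of all genes that rose. This Hippo effector rose from 104, 96.7 and 83.9 CPM to 143, 138 and 122.7 CPM, with separate groups (log2 fold change 0.51, SE 0.10, FDR 0.018). Fjx1, the kinase that tunes binding of Fat4 and Dachsous, had 21.8, 23.8 and 21.7 CPM in control and 22.8, 26.0 and 23.2 CPM in KO (log2 fold change 0.10, SE 0.09, FDR 0.583). Dvl1, of 14 planar polarity genes, rose with a log2 fold change of 0.47 (SE 0.08, FDR 0.0094). Among 11 genes for cadherin processing, the proprotein convertases Pcsk6 and Pcsk5 moved in opposite directions, and their relative Furin, at 105 to 133 CPM in control and 114 to 120 CPM in KO, had an FDR of 0.928. Pcsk6 fell from 22.2, 24.4 and 20.0 CPM to 12.2, 11.3 and 11.3 CPM (log2 fold change -0.93, SE 0.10, FDR 0.00105). Pcsk5 rose from 55.1, 61.8 and 46.0 CPM to 82.6, 81.4 and 92.4 CPM (log2 fold change 0.65, SE 0.11, FDR 0.00897). Psen2, a subunit of gamma-secretase, fell (log2 fold change -0.43, SE 0.11, FDR 0.0443). None of the 4 tested genes of the wider cadherin superfamily passed, which were Clstn1, Clstn3, Cdhr1 and Ret. With each library left out in turn, Ctnna1 (FDR 0.0575 to 0.177) and Psen2 (0.0651 to 0.178) lost their calls in all 6 fits and Pkp4 in all but that without control 3 (up to 0.191). Yap1 and Ptprk lost theirs without KO 1 or KO 2, and Jup and Dvl1 without KO 2 (highest FDR 0.0996, 0.0757, 0.0765 and 0.069), so that 3 partner genes passed without KO 2 and 5 without KO 1. Of all tested genes, 3.1% passed without KO 2 and 3.79% without KO 1, beside 7.56% in the main test.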

How the data were processed

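RNA was extracted from aorta with TRIzol, and libraries were made after removal of ribosomal RNA. The authors quantified paired-end reads against mm10 with Ensembl release 101, using DRAGEN, and deposited estimated counts per gene for each library, neither normalized nor rounded. The DRAGEN version and the sharing of reads between genes are not given in the sources used here. Non-whole values occurred in 50 members, 36 of them tested.

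Groups came from the sample titles. Counts were rounded, and the study's filter was kept, a count over 10 in every library of 1 group or both. Tests used edgeR 4.0.16 in R 4.3.3 (TMM, glmQLFit, glmQLFTest, no covariates) with Benjamini-Hochberg adjustment over 16565 genes. SE is the absolute log2 fold change divided by the square root of F. Alternatives were DESeq2 1.42.0, limma-voom (limma 3.58.1), DESeq2 size factors, no filter, filterByExpr, a replicate block and leaving out each library. The code was tested on simulated data. Intervals of counts were not used, and a count near 10 is imprecise. No pair of libraries agreed within sampling noise. Positions and exon lengths are from GENCODE M21 (GRCm38), and promoters are from RefSeq.

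Named genes were Fat3, members with an FDR under 0.05, all Fat, Dchs and Celsr genes, Cdh2, Cdh5, Cdh11, Cdh13, the highest 2 tested of each subfamily or cluster, 2 on each side of the filter, Ctnnb1, Ctnna1, Ctnnd1, Fjx1, partners with an FDR under 0.05, and Prdm16. Cdh1, Cdh18, Cdh19, Pcdh12, Furin, Clstn1, Clstn3, Cdhr1, Ret and single markers were named after their values were seen. Members and lists were chosen with earlier results of these data known.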

Additional observations from a re-analysis of the deposited data

How the results depend on the processing

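DESeq2 gave 15 members with an FDR under 0.05 (5 of them lower), fitting without a filter gave 13 (4 lower), and limma-voom, DESeq2 size factors and filterByExpr gave 10, 10 and 9. Of all genes in each fit, 7.56% passed in the main test, 10.3% with DESeq2 and 5.79% without a filter. The share was 7.51% with limma-voom, 7.56% with DESeq2 size factors, 6.78% with filterByExpr and 4.68% with the replicate block. All 10 members of the main test were among those of DESeq2. Fat4 and Pcdh7 passed with DESeq2, and Dchs2, Celsr1 and Cdh4 both with DESeq2 and without the filter. With the replicate number as a block, 1 member was higher past a fold of 2 and 3 were higher at any fold, and Cdh6, Celsr2, Fat3, Pcdh1 and Pcdh11x kept an FDR under 0.05. Deviations of libraries with the same number correlated at -0.132, -0.0455 and -0.107, which shows no pairing by number. With 3 libraries a group these values cannot exclude one. Whether libraries with the same number share a litter or batch is not stated in the sources used here. Leaving out each library, members past a fold of 2 numbered 1 to 3 (higher) and 0 to 2 (lower), members past the FDR 2 to 8 (higher) and 1 to 3 (lower), and partner genes 3 to 9. The lowest of each came without KO 2, where the share of all tested genes past the FDR was also lowest. That share was 3.1% without KO 2 and up to 8.4% without control 2, beside 7.56% in the main test. The 10 members of the main test kept their direction in all settings. With 3 libraries a group and 24911609 counts in the smallest, changes of members near 10 counts could not be measured well. The per-length order of Pcdhgc3 and Cdh13, and how far Fat1 stands above Cdh13, depend on the transcript length used.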
